A study of Homo sapiens with 4 samples.

Results

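The insulin-like growth factor (IGF) binding proteins IGFBP1 to IGFBP7, the receptors IGF1R and INSR and the docking protein IRS1 were followed at the level of RNA in HCC1954, a HER2-amplified human breast cancer cell line. The members were taken by gene symbol, in a choice made with earlier results of these data known, and made up 10 of the 58735 genes counted. RNA-seq had been run on 4 samples, 2 carrying a control short hairpin RNA (shCON) and 2 carrying one that targets ZDHHC15 (shZDHHC15), an enzyme of the family that attaches palmitate to proteins. The question was which genes change when this enzyme is depleted. All 4 samples carried a hairpin from a lentiviral GIPZ vector. The labels speak both of a stable knockdown and of a harvest 36 h after transfection, and the methods mention monoclonal cultures screened for the loss of the protein, so that it is not given whether each group is 1 clone, how many hairpins were used, or whether the samples of a group were separate cultures. The p-values therefore measure the spread between these samples only, which may be technical.

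IGFs are secreted ligands that act through IGF1R, a receptor tyrosine kinase, and to a lesser degree through its close relative INSR, the insulin receptor. The activated receptors phosphorylate docking proteins such as IRS1, which pass the signal to PI 3-kinase, AKT and the RAS-MAPK arm. The IGF binding proteins hold the ligands outside the cell. They can keep IGF from its receptor, release it when a protease cuts them, and in some cases act without IGF. In breast epithelium IGFBP3 and IGFBP5 are known for their roles in growth arrest and in the involution of the gland.

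The libraries held between 17560982 and 19118704 counts. ZDHHC15, the targeted gene, had 17617 and 15716 counts in shCON and 0 and 0 in shZDHHC15, at least 5890-fold lower when the empty samples are set to a floor of 3 counts per sample. CPM is the read count scaled to a common library size. By library size alone that floor corresponds to between 0.157 and 0.171 CPM, and it covers counting error only. The other CPM values and the fold bound also carry the TMM scaling named in the processing section. Of the breast epithelial markers all 10 were detected. Of these, 7 were lower in shZDHHC15, KRT19 was higher and CDH1 and TFAP2C were not called, and the summed level of the 10 was 19744 and 21261 CPM in shCON and 11990 and 12209 CPM in shZDHHC15. The summed endothelial markers went from 57.1 and 57.1 CPM to 107 and 101 CPM, with PECAM1 and CDH5 higher and KDR lower, and the fibroblast markers from between 5.81 and 7.17 CPM to between 8.56 and 11.5 CPM. The summed leukocyte markers went from 0.713 and 0.415 CPM to 1.66 and 1.63 CPM, with CD14 higher and CD3E at 0 in all samples. The summed hepatocyte markers went from 2.74 and 2.13 CPM to 4.19 and 3.26 CPM, with TTR at 0 in all samples. The part of these markers in the results on the IGF genes was not tested. All samples came from the HCC1954 cell line. In bulk RNA, a change in every cell and a larger change in part of the cells cannot be told apart.

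Knockdown of ZDHHC15 went with opposite shifts among the binding proteins and the receptors. IGFBP3 and INSR were higher, and IGFBP5, IGFBP2, IGFBP6 and IRS1 were lower. IGFBP4 and IGF1R did not pass the test, and IGFBP1 and IGFBP7 lay at or near 0 in both groups. Of the 8 members with enough counts to be tested, 2 rose and 4 fell past the threshold of 0.05 on the adjusted p. Across all 15817 genes tested, 42.0% passed this threshold, 21.7% higher and 20.3% lower. Changes of this kind were thus frequent among all genes, and 6 of 8 members is a count to be read against that background. At a log2 fold change beyond 1, INSR was higher and IGFBP5 lower, where 7.51% of all genes were higher and 3.79% lower, 11.3% in both directions together. The CPM of the groups did not overlap for any of the 8 members tested, and 72.5% of all genes tested also showed no overlap. The median log2 fold change was -0.37 over the 8 members and 0.02 over all genes. In 3 of the 4 calls of lower members the result depended on single samples. The number of lower members fell to 2 without shCON replicate 2, to 1 without shZDHHC15 replicate 1 and to 2 without shZDHHC15 replicate 2.

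**Figure D1:**
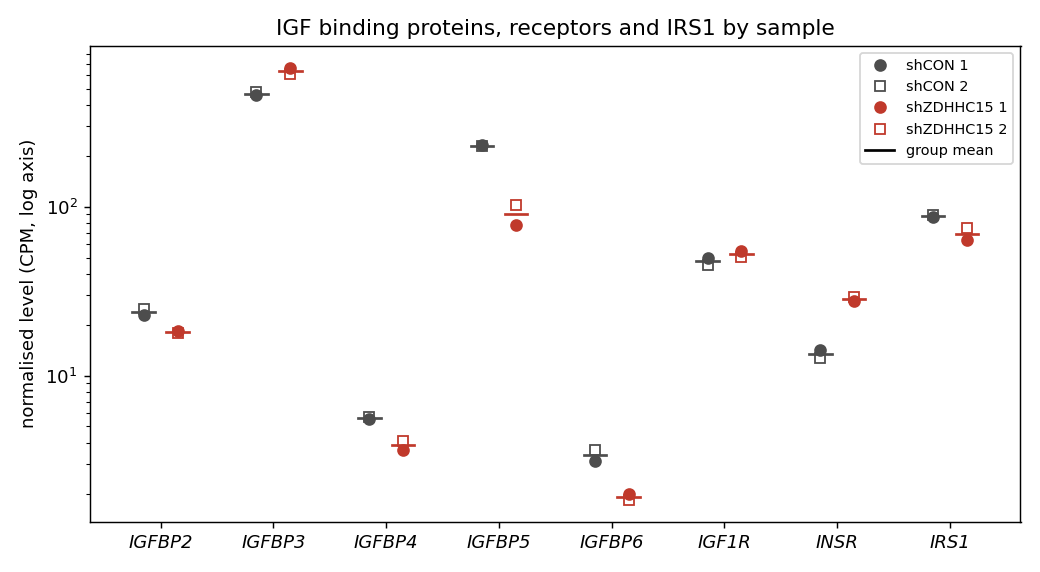
Level in CPM (log axis) of the 8 members tested, with 1 point per sample and a line at each group mean. IGFBP3 and INSR sit higher in both shZDHHC15 samples than in both shCON samples, IGFBP2, IGFBP4, IGFBP5, IGFBP6 and IRS1 sit lower, and the groups of IGF1R all but touch.

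The DNA just upstream of the members whose RNA moved most is shown first, together with IRS1, because these windows differ in base composition and in the motifs they hold. Sequences are from RefSeq on GRCh38.p14, on the strand of the gene, and cover the 250 bases before the annotated start. IGFBP5 lies at chr2:216695550-216695799 (minus strand), INSR at chr19:7294415-7294664 (minus strand) and IRS1 at chr2:226799821-226800070 (minus strand). Capitals mark CATTCC, the core motif of the TEAD factors, and GGGCGG, the GC box, on either strand.
IGFBP5: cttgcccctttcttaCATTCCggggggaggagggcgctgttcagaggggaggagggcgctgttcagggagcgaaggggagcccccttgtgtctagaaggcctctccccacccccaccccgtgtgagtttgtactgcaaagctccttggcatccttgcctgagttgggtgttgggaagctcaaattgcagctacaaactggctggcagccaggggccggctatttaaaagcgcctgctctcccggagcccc
INSR: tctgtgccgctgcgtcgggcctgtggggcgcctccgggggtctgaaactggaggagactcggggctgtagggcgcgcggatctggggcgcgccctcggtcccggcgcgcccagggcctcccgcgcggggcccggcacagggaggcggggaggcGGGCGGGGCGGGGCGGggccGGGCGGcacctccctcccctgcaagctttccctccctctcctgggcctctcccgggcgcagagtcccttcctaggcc
IRS1: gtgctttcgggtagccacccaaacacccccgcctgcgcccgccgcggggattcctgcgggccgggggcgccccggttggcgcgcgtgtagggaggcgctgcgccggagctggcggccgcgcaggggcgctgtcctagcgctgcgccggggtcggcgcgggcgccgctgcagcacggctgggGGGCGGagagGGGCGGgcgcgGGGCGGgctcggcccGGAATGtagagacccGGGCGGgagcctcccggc

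For 8 of the 10 members a promoter was found in the RefSeq table, and IGFBP2 had 3 starts. In GENCODE's drawing of the genes, the window of IGFBP3 and those at 2 starts of IGFBP2 lie inside the gene. That of IGFBP6 (chr12:53097417-53097666) lies mostly inside it, since GENCODE starts this gene at 53097436. None of these windows is printed. By that drawing all motif matches of IGFBP3 and IGFBP6 given here lie inside the gene and not upstream of it. CATTCC was present in the windows of 3 of the 8 members, against 11.9% of 35116 promoter windows of the same length. These were IGFBP5 (at -235 from the RefSeq start), IGFBP6 (at -101, inside the gene as GENCODE draws it) and IRS1 (at -33). These 3 genes were lower in shZDHHC15, and so was IGFBP2, which held no CATTCC at any of its 3 starts. IGFBP4, which lay lower without passing the test (-0.53 on the log2 scale), held none either. The calls of IGFBP6, IRS1 and IGFBP2 did not hold in every setting. GGGCGG was present in 7 of the 8 members, all but IGFBP5, against 42.6% of all windows. Members are counted by gene, with IGFBP2 included if any of its 3 starts held the motif, and the percentages by single window. INSR and IRS1 held 4 copies each, of which 3 in INSR overlap. The forkhead motif TGTTTAC was found in IGFBP6 (2.98% of all windows) and the TATA box TATAAA in IGFBP4 (10.7%). The AP-1 motif TGANTCA (6.57%) and the E-box CACGTG (6.34%) were found in none of the 8. The base composition differed as well. G and C made up 61.2% of the window of IGFBP5 and of IGFBP6, and 76.0%, 78.4%, 80.8% and 81.2% of the windows of IGFBP3, INSR, IRS1 and IGF1R, against a median of 58.0% over all windows. Motif matches are descriptions of these letters and not sites of binding.

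Among the binding proteins, IGFBP5 changed most. IGFBP5 is the most conserved member of the family and binds the extracellular matrix as well as IGF. It had 231 and 229 CPM in the shCON samples and 78.0 and 103 CPM in the shZDHHC15 samples. The groups were far apart, although the shZDHHC15 samples differed from each other by a factor of 1.32. IGFBP5 was 2.54-fold lower in shZDHHC15 (229.8 ± 1.32 against 90.4 ± 17.5 CPM, SD, n = 2 per group), with a log2 fold change of -1.35 (SE 0.117, 95% interval -1.60 to -1.10, adjusted p = 4.78e-07). The fold change stayed between -1.56 and -1.16 on the log2 scale with any 1 sample left out.

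IGFBP3, the main carrier of IGF in serum, was the most abundant member in both groups and moved the other way. Its level was 457 and 474 CPM in shCON and 666 and 611 CPM in shZDHHC15. Both shZDHHC15 samples lay above both shCON samples. IGFBP3 was 1.37-fold higher (466 ± 12.2 against 638 ± 39.1 CPM, SD, n = 2), with a log2 fold change of 0.46 (SE 0.0879, 95% interval 0.27 to 0.64, adjusted p = 7.9e-04). With any 1 sample left out it stayed between 0.39 and 0.52.

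IGFBP2, IGFBP4 and IGFBP6 were present at much lower levels and all lay lower in shZDHHC15. IGFBP2, a binding protein with a preference for IGF2, had 22.8 and 24.7 CPM in shCON and 18.5 and 17.9 CPM in shZDHHC15. The groups did not overlap, and the change was -0.39 on the log2 scale (SE 0.129, 95% interval -0.66 to -0.11, adjusted p = 0.0262). This call was lost without shCON replicate 2 (-0.33, adjusted p = 0.0937), without shZDHHC15 replicate 1 (-0.41, adjusted p = 0.0916) and without shZDHHC15 replicate 2 (-0.36, adjusted p = 0.131). IGFBP6, the member with the strongest preference for IGF2 over IGF1, had 57 and 61 counts in shCON and 37 and 36 in shZDHHC15. These are 3.13 and 3.62 CPM against 1.99 and 1.83 CPM, without overlap, and the log2 fold change was -0.82 (SE 0.279, 95% interval -1.41 to -0.22, adjusted p = 0.0288). At this depth the call rests on few counts. It was lost without shCON replicate 2 (-0.71, adjusted p = 0.127), without shZDHHC15 replicate 1 (-0.87, adjusted p = 0.0683) and without shZDHHC15 replicate 2 (-0.76, adjusted p = 0.108). IGFBP4, which inhibits IGF and is cleaved by PAPPA, had 5.54 and 5.69 CPM in shCON and 3.65 and 4.13 CPM in shZDHHC15. Its log2 fold change of -0.53 (95% interval -0.99 to -0.06) did not pass the test (adjusted p = 0.0643).

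IGFBP1, the binding protein of liver and decidua, had 0 and 0 counts in shCON and 1 and 1 in shZDHHC15. IGFBP7, a relative with weak affinity for IGF, had 1 and 0 counts in shCON and 2 and 2 in shZDHHC15. Neither exceeds the floor of 3 counts in any sample, so no fold is given and no difference was detectable at this depth.

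**Figure D2:**
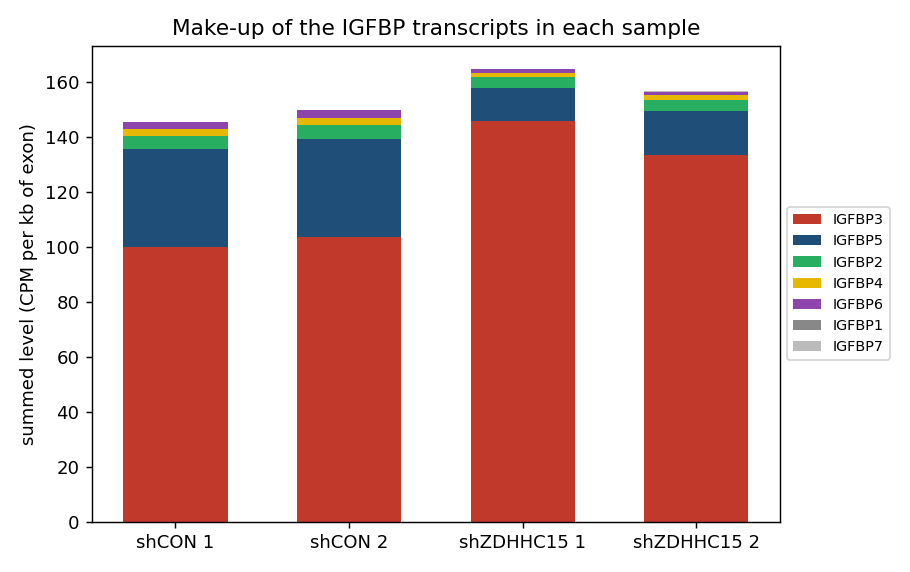
Summed level of the IGFBP genes in each sample, in CPM per kb of exon, stacked by gene. The IGFBP3 segment grows and the IGFBP5 segment shrinks in both shZDHHC15 samples, while the height of the bars goes from 145 and 150 to 165 and 157 CPM per kb.

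Because IGFBP3 rose while IGFBP5 fell, the make-up of the binding protein transcripts shifted more than their sum. IGFBP3 took 63.5% (95% Wilson interval 62.7 to 64.3) and 64.3% (63.5 to 65.2) of all IGFBP counts in the shCON samples. In the shZDHHC15 samples it took 86.7% (86.1 to 87.2) and 82.8% (82.2 to 83.4). These intervals cover counting error only, and those of the shZDHHC15 samples do not overlap each other. The share of IGFBP5 was 32.1% and 31.1% in shCON and 10.1% and 13.9% in shZDHHC15. Per kb of exon, IGFBP3 was 2.79 and 2.92 times as abundant as IGFBP5 in shCON and 12.04 and 8.38 times in shZDHHC15. The summed IGFBP level, 719 and 737 CPM in shCON and 768 and 738 CPM in shZDHHC15, differed far less. With 2 samples against 2, an exact two-sided permutation test of any such single ratio cannot go below p = 0.333, so these ratios are given without a test.

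The receptors differed from each other. INSR, which binds insulin and, in its shorter isoform, IGF2, had 14.2 and 12.7 CPM in shCON and 27.6 and 29.2 CPM in shZDHHC15. Both shZDHHC15 samples lay well above both shCON samples. INSR was 2.10-fold higher (13.5 ± 1.03 against 28.4 ± 1.12 CPM, SD, n = 2), with a log2 fold change of 1.07 (SE 0.134, 95% interval 0.79 to 1.36, adjusted p = 1.81e-05). It stayed between 0.995 and 1.13 with any 1 sample left out, and was lowest without shCON replicate 2. Counts are per gene, so the isoforms of INSR cannot be told apart. IGF1R had 49.97 and 45.1 CPM in shCON and 54.6 and 50.3 CPM in shZDHHC15. The groups stood next to each other, with 49.97 CPM as the highest shCON value and 50.3 CPM as the lowest shZDHHC15 value. The log2 fold change of IGF1R was 0.14 (SE 0.110, adjusted p = 0.326), and its 95% interval of -0.09 to 0.37 leaves out a change as large as that of INSR. Per kb of exon, the level of IGF1R was 2.64 and 2.65 times that of INSR in shCON and 1.48 and 1.29 times in shZDHHC15. The summed level of both receptors went from 4.94 and 4.46 to 6.56 and 6.40 CPM per kb.

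IRS1, a docking protein of IGF1R and INSR, had 86.7 and 89.5 CPM in shCON and 63.3 and 74.9 CPM in shZDHHC15. The groups did not overlap, but the shZDHHC15 samples differed by a factor of 1.18. The log2 fold change of IRS1 was -0.35 (SE 0.107, 95% interval -0.58 to -0.12, adjusted p = 0.0164). Without shZDHHC15 replicate 1, the lower of the shZDHHC15 samples, it was -0.23 with an adjusted p of 0.256, and the call was lost.

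**Figure D3:**
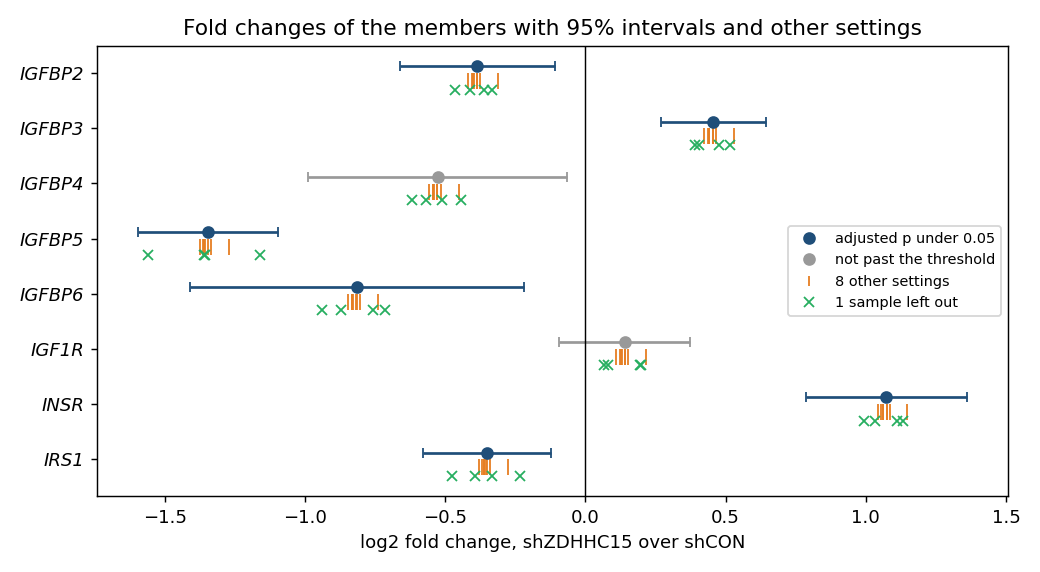
Log2 fold change (shZDHHC15 over shCON) of the 8 members tested, with the 95% interval as a bar, 8 other settings as ticks and the 4 fits with 1 sample left out as crosses. No value of any member crosses 0, and the interval of IGF1R does.

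The first 5 members in the order of the levels, compared per kb of exon, were the same in both groups. In shCON it was IGFBP3 (102 CPM per kb), IGFBP5 (35.7), IRS1 (8.85), IGFBP2 (4.99), IGF1R (3.41), IGFBP4 (2.55), IGFBP6 (2.50) and INSR (1.29). IGFBP4 and IGFBP6 overlapped in their sample values, and the other neighbours did not. In shZDHHC15 it was IGFBP3 (139.7), IGFBP5 (14.0), IRS1 (6.94), IGFBP2 (3.81), IGF1R (3.76), INSR (2.72), IGFBP4 (1.77) and IGFBP6 (1.42). INSR thus stood below IGFBP4 and IGFBP6 in shCON and above them in shZDHHC15. IGFBP2 and IGF1R overlapped there.

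**Figure D4:**
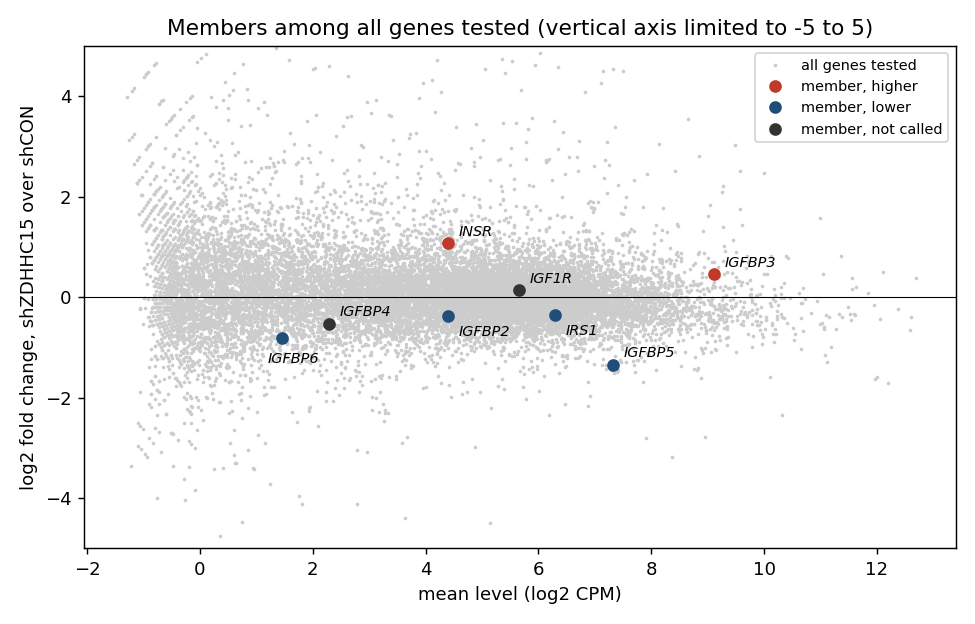
Log2 fold change against mean log2 CPM for all 15817 genes tested (grey) and the 8 members tested (coloured by call). The vertical axis is limited to -5 to 5, which leaves out 29 genes. In absolute fold change INSR exceeds 88.8% and IGFBP5 92.8% of all genes tested, and many genes lie beyond them.

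Neighbouring pairs of the family lie tail to tail in the genome, with 0 annotated genes between them. On chromosome 7, IGFBP1 (45888357 to 45893668) and IGFBP3 (45912245 to 45921874) are 18576 bases apart, with IGFBP1 under the floor and IGFBP3 the most abundant member. On chromosome 2, IGFBP2 (216632828 to 216664436) and IGFBP5 (216672105 to 216695525) are 7668 bases apart, and both were lower in shZDHHC15. IRS1 lies further along chromosome 2 (226731317 to 226799759). The exons of IGFBP5 overlap those of the antisense gene AC007563.2 over 298 bases, and that gene had 0 counts in all samples. IGFBP7 overlaps POLR2B on the other strand over 270 bases. IGFBP2 shares stretches of 60 bases with 6 other genes, so that its counts may hold reads of others. Positions are on GRCh38 as in GENCODE 29, and the strand setting of the counting is not given in the sources used here.

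The genes nearest to INSR in their pattern over the 4 samples were TTLL4 (distance 0.0557 in centred log2 CPM), SPDYE2 (0.0627) and SGPP2 (0.0637), and 104 genes lay within 0.2. SPDYE2 belongs to a family of near-identical copies, so its counts are uncertain. For IGFBP5 the nearest genes were PIF1 (0.0419), TAGLN (0.0558) and GJA5 (0.0714), and 31 genes lay within 0.2. The points are the same 4 samples in 2 groups, so the group difference itself enters this measure.

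The other genes of IGF and insulin signalling moved in both directions. Of 140 gene names written down by role, 134 were in the table and 112 were tested. The names not found were all among the relatives that share the IGFBP domain, where 13 of 19 were found. Of the 112 tested, 32 (28.6%) were higher and 27 (24.1%) lower in shZDHHC15, against 21.7% and 20.3% of all genes. Their median log2 fold change was 0.09. The ligands lay at or under the floor. IGF1, INS and INS-IGF2 had 0 counts in all samples and IGF2 had 0, 0, 0 and 3. For IGF2, INS and INS-IGF2 this is uncertain, since 73.7%, 31.7% and 100% of their exon bases are shared with other genes of the same strand, where counting can lose reads. The insulin receptor relative INSRR had at most 2 counts, and IGFALS, which forms the ternary serum complex with IGFBP3, at most 3. IGF2R, which takes up IGF2 for degradation without signalling, rose from 104 ± 12.6 to 195 ± 14.4 CPM (SD, n = 2, log2 fold change 0.91, SE 0.106, adjusted p = 8.72e-06). INSL4, a relaxin-like peptide, fell by 3.08 on the log2 scale (adjusted p = 1.03e-07). Of the relatives that share the IGFBP domain, 0 of 9 tested were higher (21.7% over all genes) and 4 were lower (20.3% over all genes). Among the lower ones were CYR61 (-2.79), CTGF (-2.36) and NOV (-0.96) of the CCN family on the log2 scale.

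The proteases that cut the binding proteins, and their inhibitors, showed 3 higher and 2 lower genes of 8. These are 37.5% and 25.0%, against 21.7% and 20.3% of all genes. STC1, a stanniocalcin that inhibits PAPPA, rose by 1.56 on the log2 scale (SE 0.217, adjusted p = 5.17e-05), from 60 and 47 counts to 181 and 162. PAPPA2, the protease of IGFBP3 and IGFBP5, fell by 3.05 (SE 0.422, adjusted p = 4.8e-05), from 63 and 45 counts to 5 and 9. ADAM12, a further protease of these proteins, rose by 0.75 (adjusted p = 0.00457). STC2, the other stanniocalcin, fell by 0.50 (adjusted p = 4.06e-04). PAPPA, which cuts IGFBP4, was higher by 1.10 (SE 0.413, adjusted p = 0.0440), and this call was lost when any 1 of the 4 samples was left out (1.08 to 1.11, adjusted p from 0.102 to 0.123). PAPPA also overlaps its antisense gene.

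Beside IRS1, the docking proteins and adaptors showed 7 higher and 7 lower genes of 27. Each is 25.9%, against 21.7% higher and 20.3% lower over all genes. IRS2, the other main insulin receptor substrate, was lower like IRS1, with 1659 and 1528 counts in shCON and 779 and 904 in shZDHHC15 (log2 fold change -1.05, SE 0.104, adjusted p = 1.85e-06). The groups were well apart, and IRS2 overlaps an antisense gene. The adaptor SH2B2 and the caveolar protein CAV1 were lower by values of -1.02 and -0.63, and the adaptors SH2B3 and NCK1 higher by 0.74 and 0.53. SHC3 was higher by 1.02 (adjusted p = 0.0105), a call lost without shCON replicate 2 (0.81, adjusted p = 0.0612) and without shZDHHC15 replicate 1 (0.80, adjusted p = 0.0802). Of the phosphatases and other brakes, 6 of 18 were higher (33.3%) and 5 lower (27.8%), to be read against the same shares over all genes. TRIB2, a pseudokinase that binds AKT, rose by 1.57 and TRIB1 by 0.46, whereas SOCS2, a feedback inhibitor of cytokine and IGF1R signalling, PHLDA3, which competes with AKT for the membrane, and the receptor phosphatase PTPRF had log2 fold changes of -1.47, -0.92 and -0.67. NEDD4, a ubiquitin ligase, was higher by 0.51 (adjusted p = 0.00982). Without shCON replicate 2 it was higher by 0.28, which ended the call, and without shCON replicate 1 by 0.78.

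The PI 3-kinase, AKT and TOR genes showed 10 higher and 6 lower of 29. These are 34.5% and 20.7%, against 21.7% and 20.3% of all genes. PIK3R1, the main regulatory subunit of PI 3-kinase, had 186 and 110 counts in shCON and 663 and 564 in shZDHHC15, a log2 fold change of 1.93 (SE 0.183, adjusted p = 1.17e-06). PIK3R3, a related regulatory subunit, and the AKT phosphatase PHLPP2 were higher by 1.28 and 0.96. EIF4EBP1, the translation repressor that TOR phosphorylates, and the lipid phosphatase INPP4B had log2 fold changes of -0.76 and -0.62. PIK3CD had -0.57 (adjusted p = 0.0298), and the call was lost without shCON replicate 2 (-0.53, adjusted p = 0.102), without shZDHHC15 replicate 1 (-0.55, adjusted p = 0.114) and without shZDHHC15 replicate 2 (-0.58, adjusted p = 0.0888). Of the FOXO, GSK3 and metabolic genes 5 of 14 were higher (35.7%) and 1 lower (7.14%), to be read against the same shares over all genes. The higher ones were led by SREBF1, a regulator of lipid synthesis, at 1.23, FOXO6 at 1.20 and the hexokinase HK2 at 0.59. The lower gene was GSK3A at -0.32 (adjusted p = 0.0196), and its call was lost without shCON replicate 2 (-0.24, adjusted p = 0.0612) and without shZDHHC15 replicate 1 (-0.24, adjusted p = 0.215). Of the 3 IGF2 mRNA-binding proteins, IGF2BP2 was lower by a log2 fold change of -1.04. Exons of PHLDA3, PIK3R3, GSK3A and NCK1 overlap another gene on the same strand, and those of CTGF, SH2B3, SOCS2, PHLPP2, INPP4B, PIK3CD, SREBF1 and HK2 overlap one on the other strand, so their counts are less certain.

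**Figure D5:**
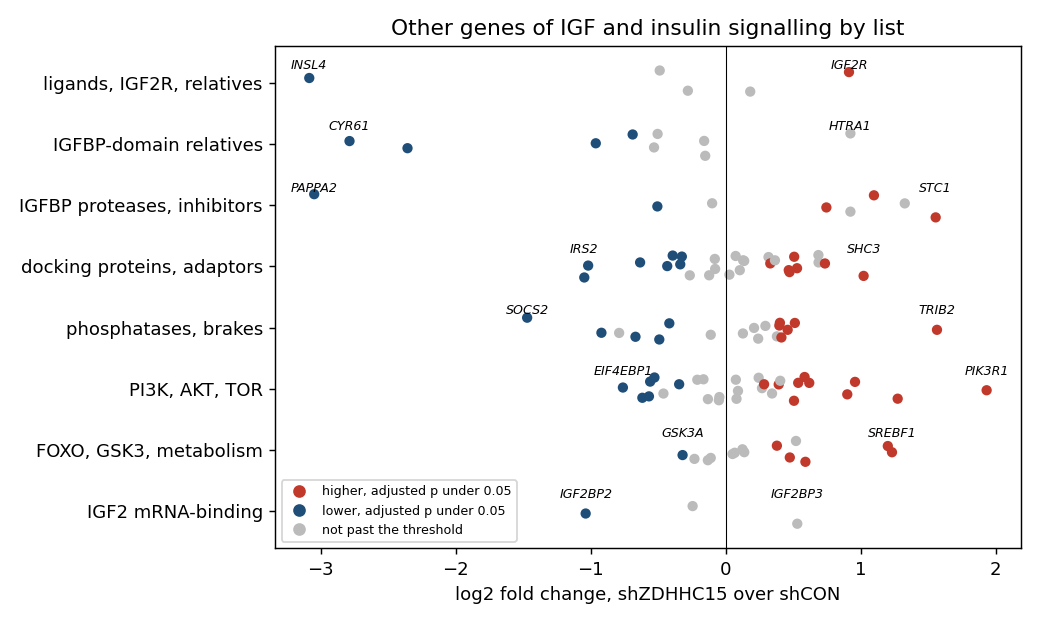
Log2 fold change (shZDHHC15 over shCON) of every tested gene of the pathway outside the members, 1 row per role, coloured by call. Values lie on both sides of 0 in most rows, from -3.08 (INSL4) to 1.93 (PIK3R1). Neither the 9 IGFBP-domain relatives nor the 3 IGF2 mRNA-binding genes tested have a called gene above 0. Over all genes tested 21.7% were called higher, so such small rows can lack one without meaning.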

How the data were processed

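Total RNA of HCC1954 cells was sequenced in 4 samples, 2 shCON and 2 shZDHHC15, grouped by the sample labels. The authors deposited raw counts of reads per gene, not normalized, for 58735 genes, with gene lengths. The submitters' processing notes name HISAT2, StringTie, SAMtools and hg38. The counting tool, its strand setting and tool versions are not given in the sources used here. All gene identifiers matched GENCODE 29.

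Genes were filtered with filterByExpr, scaled by TMM and tested with edgeR 4.0.16 (R 4.3.3) by the quasi-likelihood test across 15817 genes with Benjamini-Hochberg adjustment. Every adjusted p is from this test, at a threshold of 0.05, unless another is named. The standard error is the size of the log2 fold change over the square root of F. CPM per kb used the deposited lengths, which equal the union of the exons for all 10 members. The depth per sample, 17560982 to 19118704 counts, puts the floor of 3 counts at 0.157 to 0.171 CPM before TMM scaling. The test was tried on simulated counts. Replicates of a group differed by more than sampling noise (chi-square per degree of freedom 8.32 and 6.79).

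The members and gene lists were chosen with earlier results of these data known. Named pathway genes are up to 3 called rises and 3 called falls per list with the largest fold changes, and the ligands. For INSR and IGFBP5, the 3 nearest protein-coding genes in centred log2 CPM are named. Alternatives changed the scaling (library size alone, upper quartiles, or the size factors of DESeq2 1.42.0), the test (the Wald test of DESeq2, or edgeR with its legacy quasi-dispersion), the filter (none, or 10 counts as a minimum throughout) and the samples (a replicate block, or 1 sample omitted).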

Additional observations from a re-analysis of the deposited data

How the results depend on the processing

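IGFBP3, IGFBP5 and INSR kept their direction under all 12 alternatives, and their call under the 8 that used all 4 samples. IGFBP4 and IGF1R were called under none. No member changed sign. The calls of IGFBP2, IGFBP6 and IRS1 did not all hold, and the cause was not tested. With library size as the only scaling, IGFBP2 had a log2 fold change of -0.31 (adjusted p = 0.0677) and IRS1 -0.27 (adjusted p = 0.0556), which left 2 lower members. With the DESeq2 Wald test, IGFBP2 had -0.40 (adjusted p = 0.0607) and IGFBP6 -0.83 (adjusted p = 0.123), which again left 2. With no filter on low counts, 30168 genes entered both the fit and the adjustment, in place of 15817. There IGFBP2 (-0.40, adjusted p = 0.0614), IGFBP6 (-0.83, adjusted p = 0.0565) and IRS1 (-0.37, adjusted p = 0.0654) lost their calls, which left 1 lower member. Among the named pathway genes, no filter also ended the calls of PAPPA, SHC3, NEDD4, PIK3CD and GSK3A, the DESeq2 Wald test those of PAPPA and PIK3CD, and library size only those of PIK3CD and GSK3A. With no filter the higher pathway genes numbered 21 in place of 32, and the higher genes overall 2282 in place of 3427. When 1 sample was omitted, the lower members numbered 1 to 4, IGFBP2 ranged from -0.47 to -0.33, IGFBP6 from -0.94 to -0.71 and IRS1 from -0.48 to -0.23. In those fits the lone sample of a group is assumed to vary like the other group. Some of their p-values were far smaller than with all 4 samples, so a call kept there adds little.

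Samples of the 2 groups that share a replicate number did not deviate together (correlation 0.0344), so the numbers were not taken as pairs. With the replicate block 2 members were higher and 4 lower, as without it, and the calls over all genes were 3723 higher and 3502 lower in place of 3427 and 3217.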
